A study of Homo sapiens with 6 samples.

Results

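The 10 genes examined here encode the core of the desmosome: the desmogleins DSG2 and DSG3, the desmocollins DSC2 and DSC3, desmoplakin (DSP), plakoglobin (JUP), the plakophilins PKP1, PKP2 and PKP3, and PERP. They were taken by gene name from the deposited count table, which held 58735 genes, and each name matched 1 gene. RNA-Seq had been performed on MCF10A, an established line of nonmalignant human breast epithelial cells, 48 hours after transient transfection with siRNA against DAB2IP (siDAB2IP) or with a nontargeting control pool (siControl). DAB2IP encodes a RasGAP, a protein that switches Ras off. Each group had 3 libraries, labelled replicates 1 to 3, and the cells of both groups were kept in the same medium, which contained horse serum, insulin, epidermal growth factor, cholera toxin and hydrocortisone. The paper calls the control siRNA a pool and gives the DAB2IP siRNA by catalogue number, without saying in words whether it was one. Nothing in the labels says that the replicates were separate cultures, so p-values measure the spread between these libraries, which may be technical.

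Library totals lay between 16353783 and 21916062 counts, and all 10 genes were among the 15430 that passed the filter on low counts. Values are TMM-normalized CPM (read counts scaled by library size), fold changes are siDAB2IP over siControl on the log2 scale, and a gene is said to have risen or fallen where the edgeR quasi-likelihood test, Benjamini-Hochberg adjusted over all genes tested, gave p under 0.05. DAB2IP itself was at 91.6 ± 13.1 CPM in siControl and 25.1 ± 2.57 CPM in siDAB2IP libraries (SD, n = 3 each), with a log2 ratio of the groups of −1.86 (edgeR adjusted p = 9.71e-05). Replicate 3 of each group stood apart from replicates 1 and 2 on the second principal component, which held 20.2% of the variance. Scores on the first (51.5%) were 18.1, 20.4 and 51.1 for siDAB2IP replicates 1, 2 and 3. The siControl replicates scored −31.2, −30.5 and −27.9 there. Only siDAB2IP replicate 3 was thus far from its own group on that component, on the side away from siControl. Of 7 markers of basal mammary epithelium, 7 were detected, and their summed level was 7984 to 9562 CPM in siControl and 5744 to 7267 CPM in siDAB2IP libraries. They did not move together. KRT5 and KRT14, which make up most of the sum in siControl but not in siDAB2IP libraries, fell. The laminin gene LAMB3 rose from 856 ± 24.0 to 1733 ± 170 CPM (SD, n = 3 each, log2 fold change 1.02, edgeR adjusted p = 0.00128). TP63, EPCAM, ITGB4 and CDH1 had log2 fold changes of −0.57, −0.40, 0.12 and 0.09 and did not pass the threshold. Of the markers of other cells, the immune genes summed to at most 0.325 CPM and the endothelial genes to at most 15.97 CPM in a library, ADIPOQ, PGR and CD3E had no count, the luminal hormone-receptor genes summed to 20.7 to 27.2 CPM in siControl and 22.3 to 27.3 CPM in siDAB2IP libraries, the adipocyte genes to at most 2.37 CPM, and the fibroblast markers summed to 162 to 291 CPM in siControl and 146 to 205 CPM in siDAB2IP libraries, mostly from DCN (log2 fold change −0.49, edgeR adjusted p = 0.151). Within these lists COL1A1, a fibroblast marker, rose from 15.3 ± 1.24 to 26.3 ± 5.44 CPM (edgeR adjusted p = 0.0129, and 0.0621 and 0.0670 without siControl replicates 1 and 2), and FOXA1, a luminal marker, rose from 4.64 ± 1.504 to 9.67 ± 2.21 CPM (SD, n = 3 each, edgeR adjusted p = 0.0274, and 0.0781, 0.0804 and 0.0802 without siControl replicates 1 and 3 and siDAB2IP replicate 2). The part of such shifts in marker genes in the results below was not tested, and in bulk RNA fewer cells of a type and less RNA per cell cannot be told apart.

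Desmosomes are spot-like junctions that rivet epithelial cells to each other and anchor their keratin filaments. In the intercellular space, desmogleins of 1 cell meet desmocollins of the next. Inside the cell their tails bind plakoglobin and plakophilins, and these bind desmoplakin, which holds the keratins. The stratified and basal layers of epithelia use mainly DSG3 and DSC3, whereas DSG2, DSC2 and PKP2 are the forms found in simple epithelia. PERP is a membrane protein of desmosomes and a target of the transcription factor p63. In breast epithelium these junctions join luminal and basal cells.

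With DAB2IP knockdown, 6 of the 10 genes fell (PERP, DSP, DSC3, DSC2, PKP1 and PKP2), 0 rose, and 4 did not pass the threshold (DSG2, DSG3, JUP and PKP3). Of all genes tested, 7.65% fell and 6.55% rose. At an unadjusted p under 0.05 from edgeR, 7 of the 10 were lower and 0 higher, against 15.5% and 14.5% of all genes tested, and DESeq2 at an adjusted p under 0.05 gave 6 lower and 0 higher, where it called 9.23% of all genes lower and 7.37% higher. Of the 6, PERP and PKP1 had a log2 fold change of −1 or less, and 2.42% of all genes tested both fell and had such a fold change. The median log2 fold change was −0.52 over the 10 genes and 0.0090 over all genes tested. All 3 siDAB2IP libraries lay below all 3 siControl libraries for 7 of the 10 genes, against 18.3% of all genes tested, and above them for 0, against 17.6%. The smallest p that a two-sided exact permutation test can give for such a gene is 0.1. When replicate number entered the model as a block, 6 fell and 0 rose again, where 11.4% of all genes tested fell and 9.59% rose.

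**Figure D1:**
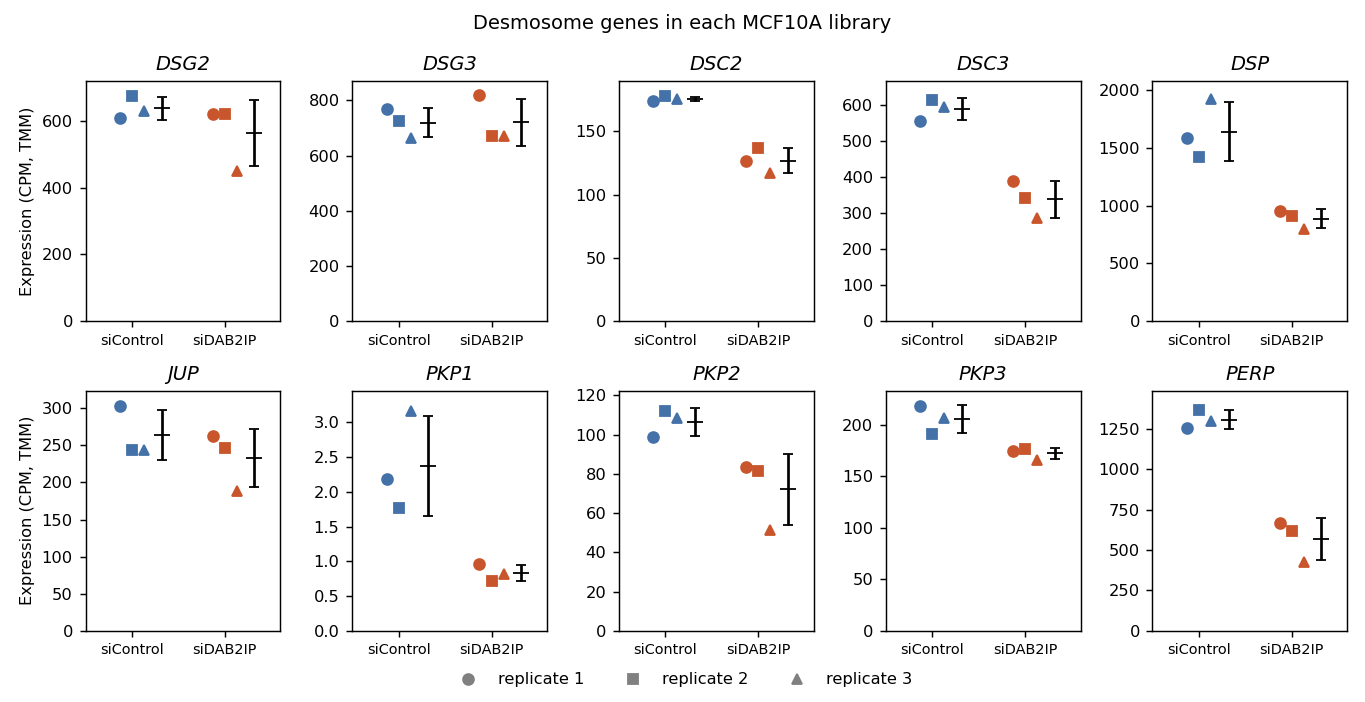
Expression of the 10 desmosome genes in each library, in TMM-normalized CPM on axes that start at 0. Circles, squares and triangles are replicates 1, 2 and 3, and black bars give the mean ± SD of 3 libraries. For 7 genes the 3 siDAB2IP libraries lie below the 3 siControl libraries. The groups overlap for DSG2, DSG3 and JUP.

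The siDAB2IP library of replicate 3 held the lowest value of the 6 libraries for 8 of the 10 genes, against 27.1% of all genes tested. That share includes genes that rose or did not change. A gene whose siDAB2IP libraries all lie below siControl must have its lowest value in a siDAB2IP library. The 8 genes and the share are therefore not a like comparison. Relative to the siControl mean on the log2 CPM scale, the median of the 10 genes stood at −0.41, −0.37 and −0.81 in the siDAB2IP libraries of replicates 1, 2 and 3, and it lay between −0.05 and 0.01 in the siControl libraries. Without siDAB2IP replicate 3, 6 genes fell. Without replicate 3 of both groups, 5 fell, and the gene lost was PKP1 (edgeR adjusted p = 0.0608). The shares of all genes that fell in these fits are not given here, so these counts have no background beside them.

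**Figure D2:**
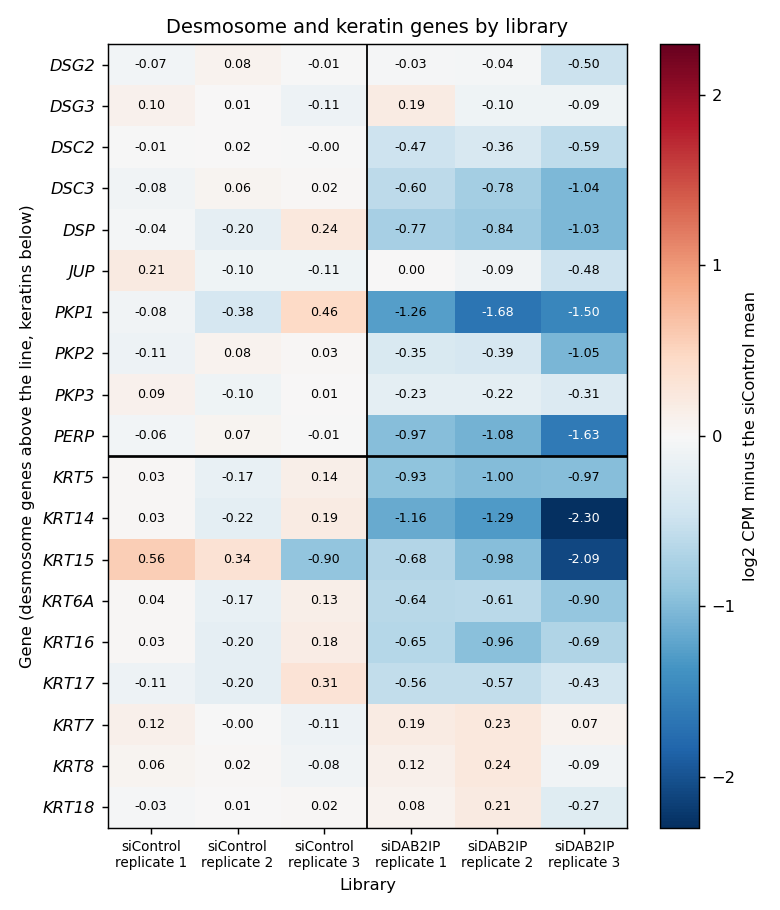
Difference of each library from the siControl mean, in log2 CPM, for the 10 desmosome genes (above the line) and 9 keratins (below it). Blue cells are lower and red cells higher than the siControl mean. PERP reads −0.97, −1.08 and −1.63 in the siDAB2IP libraries, and DSG3 reads 0.19, −0.10 and −0.09.

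For the promoters, RefSeq (GRCh38.p14) gave windows from 250 bases before to 50 bases after the annotated start for 8 of the 10 genes, 10 windows in all. PKP2 and PKP3 had no entry. The windows of PERP, DSP and DSC3, which fell, and of DSG3, with the smallest fold change of the 10, are shown so that promoters of genes with and without a fall can be compared. Letters are lower case, and capitals mark TGANTCA (AP-1) and CAGGTG or its reverse CACCTG (the E-box bound by SNAI and ZEB repressors), searched on both strands. AACNNGTT (GRHL) was searched in the same way and matched 0 of the 10 windows, as against 3.52% of all 35116 promoters. Likewise the letters TATAAA matched 0 (11.5% of all promoters), and GGGCGG or its reverse CCGCCC (the GC box of KLF and SP factors, not capitalized) matched windows of PERP, DSP, PKP1, DSC2, DSG2 and JUP but not those of DSC3 and DSG3 (45% of all promoters).
PERP, chr6:138107370-138107669, minus strand: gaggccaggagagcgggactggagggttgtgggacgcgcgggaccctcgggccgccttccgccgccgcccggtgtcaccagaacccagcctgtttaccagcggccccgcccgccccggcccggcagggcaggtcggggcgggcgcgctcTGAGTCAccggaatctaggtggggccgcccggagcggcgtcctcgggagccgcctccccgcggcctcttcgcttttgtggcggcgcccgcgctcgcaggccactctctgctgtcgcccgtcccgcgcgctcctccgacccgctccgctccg
DSP, chr6:7541421-7541720, plus strand: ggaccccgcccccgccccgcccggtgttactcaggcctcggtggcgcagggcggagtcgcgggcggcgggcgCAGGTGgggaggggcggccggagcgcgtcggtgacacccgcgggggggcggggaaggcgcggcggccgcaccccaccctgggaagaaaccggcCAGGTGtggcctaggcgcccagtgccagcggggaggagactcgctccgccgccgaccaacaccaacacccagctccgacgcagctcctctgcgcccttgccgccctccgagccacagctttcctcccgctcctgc
DSC3, chr18:31042693-31042992, minus strand: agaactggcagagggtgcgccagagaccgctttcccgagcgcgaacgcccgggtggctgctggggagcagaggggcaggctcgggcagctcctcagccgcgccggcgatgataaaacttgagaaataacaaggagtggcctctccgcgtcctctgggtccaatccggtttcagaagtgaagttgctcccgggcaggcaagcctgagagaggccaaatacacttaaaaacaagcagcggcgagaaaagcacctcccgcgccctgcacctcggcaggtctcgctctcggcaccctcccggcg
DSG3, chr18:31447491-31447790, plus strand: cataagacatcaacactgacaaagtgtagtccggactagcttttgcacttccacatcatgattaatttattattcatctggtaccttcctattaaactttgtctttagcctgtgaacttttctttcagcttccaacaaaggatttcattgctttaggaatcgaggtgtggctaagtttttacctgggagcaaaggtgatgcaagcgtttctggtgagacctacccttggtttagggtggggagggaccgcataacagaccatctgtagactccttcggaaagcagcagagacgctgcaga
The PERP window holds the AP-1 letters TGAGTCA once, starting 101 bases before the annotated start, and no other window of the 10 holds them. TGANTCA is found in 7.71% of all promoters. The DSP window holds the E-box letters at 178 and 85 bases before the start. Matches were also found in 1 of the windows of DSC2, in that of DSG2 and in 1 of those of JUP, so they occur both in genes that fell and in genes that did not, and 20.6% of all promoters have them. The DSC3 and DSG3 windows have neither. GC content was 77% for PERP and DSP, 63.3% for DSC3 and 44% for DSG3, and the median of all promoters was 58.7%. In the windows not shown it was 76.7% for DSG2 and 65.3% and 66.7% for JUP, which did not fall. It was 67.3% for PKP1 and 60.7% and 65.7% for DSC2, which fell. The values of genes with and without a fall thus overlapped. A match is a run of letters and not a measured binding site.

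PERP (chromosome 6, 138088505 to 138107511, minus strand) had the smallest p of the 10. It was at 1258, 1370 and 1301 CPM in siControl replicates 1, 2 and 3 and at 667, 617 and 423 CPM in the siDAB2IP replicates. The groups lay far apart, and the siDAB2IP library of replicate 3 was the lowest. The mean fell from 1309 ± 56.8 to 569 ± 129 CPM (SD, n = 3 each), 43.5% of the siControl mean, with a log2 ratio of the groups of −1.20 (SE, standard error, 0.17, edgeR adjusted p = 0.00252). In each of the 16 other fits PERP fell, with log2 fold changes between −1.33 and −1.03.

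DSP (chromosome 6, 7541575 to 7586717, plus strand), the linker to keratin, was at 1583, 1419 and 1925 CPM in the siControl libraries and at 954, 909 and 798 CPM in the siDAB2IP libraries. The lowest siControl library was well above the highest siDAB2IP library, although the siControl libraries spread widely. The fold change on the log2 scale was −0.89 (SE 0.14, edgeR adjusted p = 0.00483), 54.0% of the siControl mean. It ranged from −1.0 to −0.69 over the other fits and passed the threshold in 15 of 16. The exception was a limma fit of log2(FPKM + 1) that kept every gene with a count (adjusted p = 0.0505), in which only PERP and DSC3 of the 10 fell and 0 rose, against 0.683% and 0.595% of all genes.

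Both desmocollins fell. DSC3 (chromosome 18, 30990008 to 31042815, minus strand), the basal form, was at 557, 615 and 597 CPM in siControl and at 389, 342 and 286 CPM in siDAB2IP libraries. The groups did not overlap, and the siDAB2IP mean was 57.5% of the siControl mean (log2 fold change −0.80, SE 0.13, edgeR adjusted p = 0.00483). DSC2 (chromosome 18, 31058840 to 31102522, minus strand), the broadly expressed form, was at 174, 178 and 176 CPM in siControl and at 127, 137 and 117 CPM in siDAB2IP libraries. The siControl libraries had an SD of 1.71 CPM, and each siDAB2IP library was lower (log2 fold change −0.47, SE 0.10, edgeR adjusted p = 0.0125). DSC2 did not pass the threshold without siControl replicate 2 (edgeR adjusted p = 0.0550).

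Neither desmoglein passed the threshold. DSG3 (chromosome 18, 31447795 to 31478702, plus strand), the basal form, was at 769, 724 and 664 CPM in siControl and at 819, 671 and 672 CPM in siDAB2IP libraries, and the groups overlapped. The fold change on the log2 scale was 0.0043 (SE 0.12, edgeR adjusted p = 0.988), and over the other fits it lay between −0.10 and 0.05. DSG2 (chromosome 18, 31498043 to 31549008, plus strand) was at 607, 673 and 630 CPM in siControl and at 621, 619 and 450 CPM in siDAB2IP libraries. Replicates 1 and 2 of siDAB2IP lay within the siControl range, and replicate 3 lay below it. The log2 fold change of DSG2 was −0.18 (SE 0.14, edgeR adjusted p = 0.442) and −0.04 without siDAB2IP replicate 3.

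Among the armadillo proteins of the plaque, PKP1 and PKP2 fell. PKP2 (chromosome 12, 32790745 to 32896840, minus strand) was at 98.6, 112 and 109 CPM in siControl and at 83.6, 81.2 and 51.3 CPM in siDAB2IP libraries, with replicate 3 the lowest. Its fold change on the log2 scale was −0.56 (SE 0.17, edgeR adjusted p = 0.0485). It passed in 9 of 16 other fits. Without siDAB2IP replicate 3 the fold change was −0.37 and without replicate 3 of both groups −0.36, and it passed in both. The adjusted p from edgeR was 0.0751, 0.140 and 0.109 without siControl replicates 1, 2 and 3, and 0.0546 without siDAB2IP replicate 2. PKP1 (chromosome 1, 201283452 to 201332993, plus strand), which is most abundant in upper layers of stratified epithelia, was barely expressed. It had 35, 38 and 54 counts in siControl and 17, 13 and 14 counts in siDAB2IP libraries, or 2.37 ± 0.722 and 0.830 ± 0.121 CPM (SD, n = 3 each). The fold change on the log2 scale was −1.50 (SE 0.33, edgeR adjusted p = 0.0172), and the adjusted p was 0.0730 without siControl replicate 3.

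PKP3 (chromosome 11, 392614 to 404908, plus strand), the most abundant plakophilin here, was at 219, 191 and 207 CPM in siControl and at 175, 176 and 166 CPM in siDAB2IP libraries. The groups did not overlap, but the log2 fold change of −0.26 (SE 0.10) did not pass the threshold (edgeR adjusted p = 0.105). JUP (chromosome 17, 41754604 to 41786931, minus strand), which is shared with adherens junctions, was at 303, 244 and 244 CPM in siControl and at 262, 247 and 189 CPM in siDAB2IP libraries. The groups overlapped, and the fold change on the log2 scale was −0.18 (SE 0.14, edgeR adjusted p = 0.446). Without siDAB2IP replicate 3 it was −0.05.

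**Figure D3:**
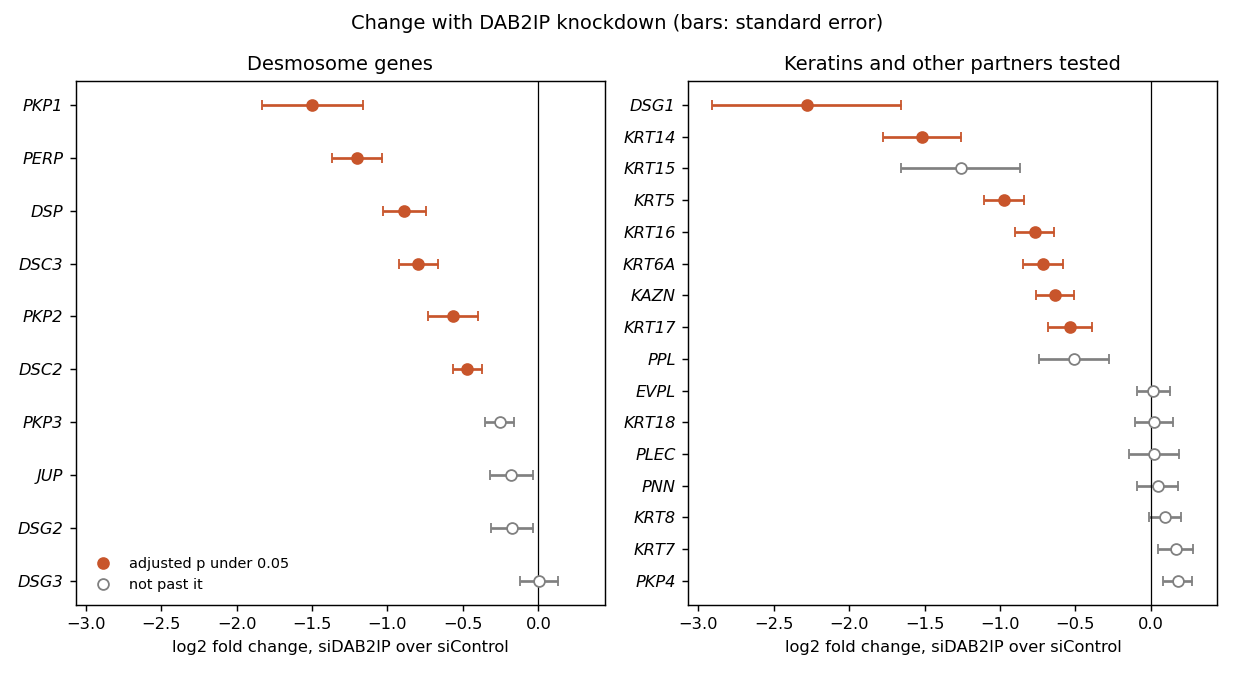
Log2 fold change, siDAB2IP over siControl, of the 10 desmosome genes (left) and of the 16 tested keratins and other partners (right), with standard errors as bars. Filled orange points have an adjusted p under 0.05 from edgeR and open points do not. The desmosome genes run from −1.50 (PKP1) to 0.0043 (DSG3). KRT5, KRT6A, KRT14, KRT16 and KRT17 lie below 0 while KRT7, KRT8 and KRT18 lie near 0. KRT15 lies at −1.26 with an open point.

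Levels can be compared between genes only per length, for which the deposited FPKM values were used. In siControl libraries, the order by mean FPKM was PERP (303 ± 13.9), DSP (161 ± 25.1), DSG3 (129 ± 9.51), DSG2 (102 ± 5.67), DSC3 (82.8 ± 4.37), PKP3 (53.8 ± 3.48), JUP (52.8 ± 6.71), PKP2 (15.0 ± 1.01), DSC2 (14.0 ± 0.171) and PKP1 (0.378 ± 0.115) (SD, n = 3). The ranges of neighbours overlapped for PKP3 and JUP and for PKP2 and DSC2, and the other neighbours did not overlap. DSC2 is the least certain of these, since the table's length of 12495 bases covers all its exons while its coding transcripts run from 4778 to 12325 bases. With the length of the first-listed GENCODE transcript of each gene, a choice made after the data had been seen, DSC2 was at 36.1, PKP2 at 24.9, PKP3 at 72.5 and JUP at 81.6 FPKM, and the order changed within these pairs only. The FPKM values of the 10 genes summed to 904, 912 and 925 in siControl and to 669, 616 and 505 in siDAB2IP libraries. PERP made up 33.1% ± 1.48 of this sum in siControl and 21.8% ± 2.17 in siDAB2IP libraries, and DSG3 14.1% ± 1.20 and 21.8% ± 2.15 (SD, n = 3 each).

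Ratios within a library do not depend on the scaling between libraries, and 5 were compared. The clearest was that of desmocollins (DSC2 and DSC3) to desmogleins (DSG2 and DSG3), the cadherins that pair across the junction. This ratio of summed FPKM was 0.391, 0.423 and 0.444 in siControl and 0.263, 0.268 and 0.257 in siDAB2IP libraries. The siDAB2IP libraries, replicate 3 included, fell within a narrow band below every siControl library. On the log2 scale the difference was −0.67 (SE 0.06). The two-sided exact permutation test gave p = 0.1, the smallest possible with 3 libraries against 3, and 0.167 after Benjamini-Hochberg adjustment over the 5 ratios. The difference lay between −0.72 and −0.62 when libraries were left out, and was −0.61 with the lengths of the first-listed transcripts, an alternative added after the data had been seen.

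DSC3 to DSC2 went from 5.93 ± 0.249 to 4.73 ± 0.614 (SD, n = 3 each), a log2 difference of −0.33 (SE 0.11, exact permutation p = 0.1, adjusted 0.167). DSC3, the basal form, was lower relative to DSC2 in every siDAB2IP library than in any siControl library, by little in replicate 1 (5.43 against a lowest siControl ratio of 5.65). The level of this ratio depends on the uncertain length of DSC2. With the first-listed transcripts it was 2.33 ± 0.0978 and 1.86 ± 0.241 (SD, n = 3 each), with the same log2 difference. PKP1 to PKP3 had a log2 difference of −1.23 (SE 0.26, exact permutation p = 0.1, adjusted 0.167), which rests on the few counts of PKP1. The groups overlapped for PKP2 to PKP3 (log2 difference −0.34, SE 0.23, exact permutation p = 0.3) and for DSG3 to DSG2 (0.19, SE 0.16, exact permutation p = 0.2). Paired by replicate number, DSG3 to DSG2 was higher in siDAB2IP in 3 of 3 pairs, by 0.06, 0.01 and 0.51 on the log2 scale, and PKP2 to PKP3 was lower in 2 of 3. The other 3 ratios were lower in 3 of 3 pairs. A two-sided exact sign-flip test of 3 pairs cannot give a p under 0.25, which it gave for each ratio but PKP2 to PKP3 (p = 0.5).

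**Figure D4:**
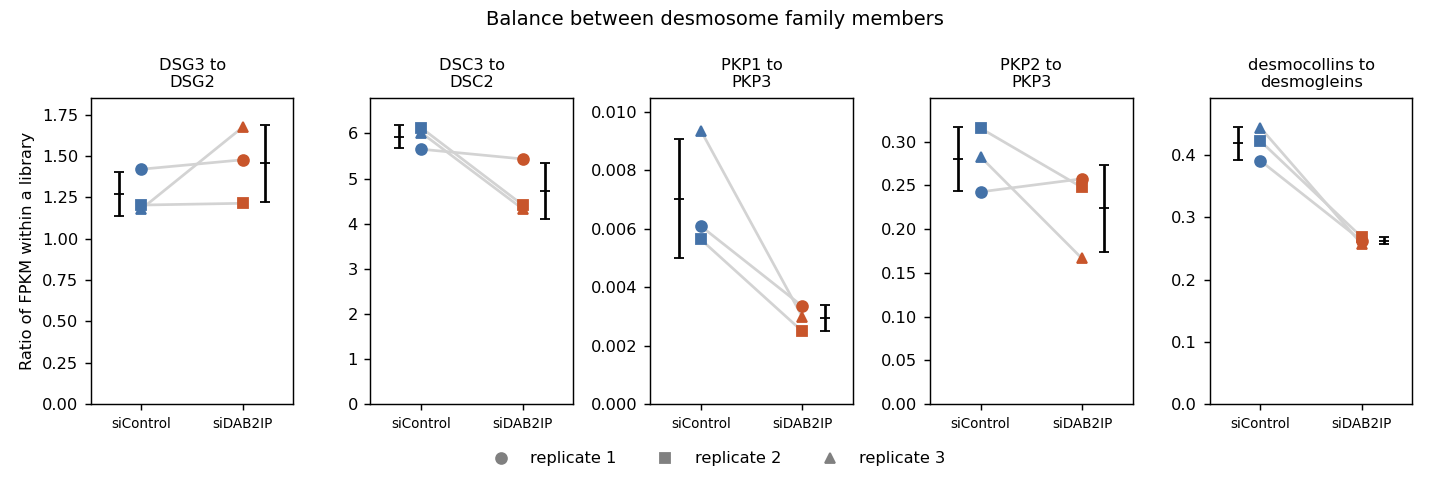
Ratios of FPKM between desmosome family members within each library, on axes that start at 0. Symbols are replicates 1 to 3, grey lines join libraries with the same replicate number, and black bars give the mean ± SD of 3 libraries. The ratio of desmocollins to desmogleins is between 0.391 and 0.444 in siControl and between 0.257 and 0.268 in siDAB2IP libraries.

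The desmosomal cadherin genes lie side by side on chromosome 18 (GRCh38), 7 genes between 30990008 and 31549008. The desmocollins are on the minus strand and the desmogleins on the plus strand. DSC3 and DSC2, at 1 end of this cluster, fell, whereas DSG3 and DSG2, at the other end, did not pass the threshold. Between them, DSG1, the desmoglein of upper epidermal layers, had 13, 19 and 34 counts in siControl and 4, 1 and 8 counts in siDAB2IP libraries. Its fold change on the log2 scale was −2.28 (SE 0.62, edgeR adjusted p = 0.0376), but it passed the threshold in 1 of the 6 fits that left out 1 library, that without siDAB2IP replicate 3 (adjusted p = 0.0143), and in the others its adjusted p was 0.0621 to 0.146. DSG4 had 1 to 16 counts in a library and was not tested, and DSC1 had 0 counts in all 6 libraries, which allows at most 0.137 to 0.183 CPM (3 counts, counting error only). Of the 6 other genes tested within 500 kb, 0 passed the threshold with edgeR, DESeq2 or the replicate block. At an unadjusted p under 0.05 from edgeR, 1 of the 6 was lower and 0 higher, against 15.5% and 14.5% of all genes tested. These were DSG2-AS1, B4GALT6, AC017100.1, TRAPPC8, AC009831.1 and RNF125, with log2 fold changes between −0.75 and 0.73. The strand used in counting is not given in the sources used here. DSG2 and DSC2 overlap the antisense genes DSG2-AS1 and DSCAS, whose counts were at most 0.149% and 0.107% of theirs in any library, and the only genes that overlap PKP2 had at most 3 counts.

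**Figure D5:**
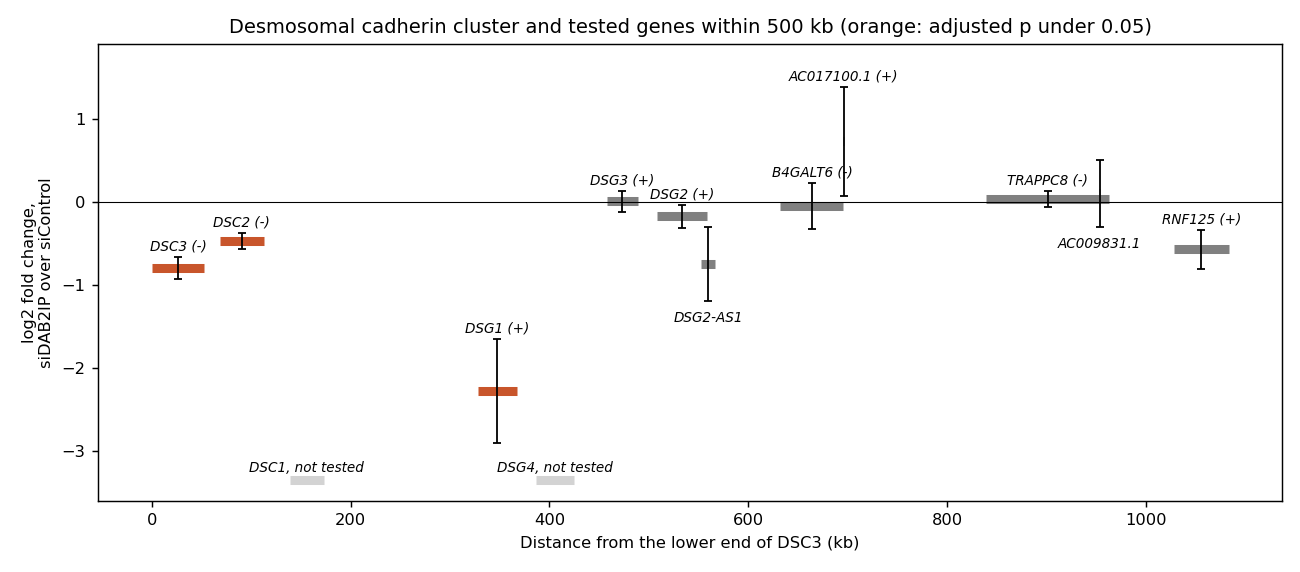
Log2 fold change of the genes of the desmosomal cadherin cluster and of tested genes within 500 kb, by distance in kb from the lower end of DSC3. Horizontal bars span each gene, error bars are standard errors, and orange bars have an adjusted p under 0.05 from edgeR. DSC3 is at −0.80 and DSC2 at −0.47, and DSG3 and DSG2 are at 0.0043 and −0.18. DSC1 and DSG4 were not tested and are drawn at the foot of the plot without a value.

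The keratins that desmosomes anchor were measured next. Of 20 further desmosome and keratin partners, 16 were tested, 7 fell (KRT5, KRT14, KRT16, KRT6A, KAZN, KRT17 and DSG1) and 0 rose, where 7.65% of all genes tested fell and 6.55% rose. At an unadjusted p under 0.05 from edgeR, 8 were lower and 0 higher, against 15.5% and 14.5% of all genes tested. DESeq2 called 7 lower and 0 higher, against 9.23% and 7.37% of all genes. With the replicate block 9 fell, against 11.4% of all genes tested, KRT15 (adjusted p = 0.000196) and PPL (0.0204) being added. KRT15 did not pass in the reported fit (log2 fold change −1.26, edgeR adjusted p = 0.0583, DESeq2 0.0822), and its groups overlapped. The basal keratin KRT5 was at 3588, 3129 and 3879 CPM in siControl and at 1844, 1763 and 1793 CPM in siDAB2IP libraries (log2 fold change −0.97, edgeR adjusted p = 0.00223). Its partner KRT14 fell from 2186 ± 308 to 765 ± 285 CPM (SD, n = 3 each). KRT6A (log2 fold change −0.72) and KRT16 (−0.77), which are induced in activated epithelium, and KRT17 (−0.54) fell as well. KRT6A, KRT14, KRT16 and KRT17 have close copies in the genome, among which reads may have been split. The simple-epithelial keratins KRT7, KRT8 and KRT18 had log2 fold changes of 0.17, 0.09 and 0.02 and did not pass the threshold. The plakins PLEC and EVPL, cytolinkers like desmoplakin, had log2 fold changes of 0.02 and 0.01 and did not pass either. PPL, which encodes the plakin periplakin, was lower (log2 fold change −0.51), with overlapping groups. It did not pass in the reported fit (edgeR adjusted p = 0.174), only with the replicate block among the fits named above. KRT5, KRT14, KRT6A and KRT16 fell in each of the 6 fits that left out 1 library. KAZN, which encodes kazrin, a partner of periplakin, missed the threshold when siControl replicate 2 was left out (edgeR adjusted p = 0.0599), and of these 6 fits KRT17 passed only in that without siDAB2IP replicate 3 (adjusted p = 0.0163, and 0.0547 to 0.102 in the other 5).

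In adherens junctions, the actin-linked junctions beside desmosomes, 3 of 14 genes passed the threshold, 2 higher and 1 lower, where 6.55% of all genes tested rose and 7.65% fell. A single gene of 14 that fell is near that background. At an unadjusted p under 0.05 from edgeR, 2 were higher and 2 lower, against 14.5% and 15.5% of all genes tested. Both of these counts are near the background. NECTIN4 (14.3 ± 2.10 to 31.6 ± 7.08 CPM) and LIMA1 (60.9 ± 8.17 to 89.4 ± 2.52 CPM) rose, and CTNNB1, which encodes β-catenin, the close relative of plakoglobin, fell from 288 ± 15.2 to 207 ± 17.2 CPM (SD, n = 3 each). Their log2 fold changes were 1.14, 0.55 and −0.47, with adjusted p-values of 0.00421, 0.0121 and 0.0168 from edgeR. CTNNB1 missed the threshold when siControl replicate 2 was left out (edgeR adjusted p = 0.0714). The classical cadherins CDH1 and CDH3 had log2 fold changes of 0.09 and −0.22 and did not pass. The median over the 14 genes was 0.08, against −0.52 over the 10 desmosome genes, and this difference was not tested.

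Of 20 genes linked to the expression or turnover of desmosome genes, 19 were tested, 1 rose and 3 fell, where 6.55% of all genes tested rose and 7.65% fell, so that the single rise is at the background. At an unadjusted p under 0.05 from edgeR, 1 was higher and 7 lower, against 14.5% and 15.5% of all genes tested. GRHL3, a transcription factor of epithelial barrier genes, rose from 21.8 ± 2.59 to 33.0 ± 1.72 CPM. The mesenchymal transcription factor gene TWIST1 fell from 42.3 ± 3.52 to 25.3 ± 1.69 CPM, and KLF4 fell from 15.6 ± 2.44 to 10.0 ± 1.46 CPM (SD, n = 3 each). Of GRHL3, TWIST1 and KLF4, only TWIST1 kept an adjusted p under 0.05 in each fit that left out 1 library. Without siControl replicates 1 and 2 the adjusted p of GRHL3 was 0.0541 and 0.0700, and that of KLF4 was 0.118, 0.111, 0.0924 and 0.0933 without siControl replicates 1 and 2 and siDAB2IP replicates 1 and 2. TP63, whose product p63 maintains basal epithelial identity and activates PERP, was at 66.9, 60.5 and 50.1 CPM in siControl and at 49.4, 41.0 and 29.4 CPM in siDAB2IP libraries. The groups were separated by a narrow gap, and the log2 fold change of −0.57 did not pass the threshold (edgeR adjusted p = 0.0615). It passed with DESeq2 (adjusted p = 0.0204), which called 4 of these genes lower, against 9.23% of all genes. It also passed with the replicate block (adjusted p = 0.00456), as did ADAM17 (0.0357). In that fit 5 of these genes fell, against 11.4% of all genes tested. Of the repressor genes, SNAI1 was at 1.53 ± 0.143 CPM in siControl and 0.774 ± 0.0964 CPM in siDAB2IP libraries (SD, n = 3 each). Its groups did not overlap, but the log2 fold change of −0.98 did not pass the threshold (edgeR adjusted p = 0.0630, DESeq2 0.161). SNAI2, ZEB1 and ZEB2 had log2 fold changes of −0.20, 0.02 and −0.07 and did not pass either.

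As a description of its pattern, PERP was compared with the 9436 other genes of at least 10 CPM on average. Those whose log2 CPM had the highest Pearson correlation with PERP over the 6 libraries were BIRC3 (r = 0.9997), PLEKHA5 (0.9992) and KMT5A (0.9990), which all fell, with log2 fold changes of −1.0, −0.58 and −0.77. BIRC3 went from 404, 433 and 419 CPM to 242, 220 and 164 CPM, with siDAB2IP replicate 3 again the lowest. Of the other desmosome genes, DSC3 was the closest (r = 0.995, rank 17), followed by DSC2 (0.980), DSP (0.942) and PKP2 (0.939), and DSG3 was the least alike (0.154). These correlations over 6 libraries are dominated by the difference between the groups.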

How the data were processed

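RNA-Seq of 6 MCF10A libraries was used. The authors deposited counts of reads per gene without normalization, and FPKM values, for which the authors divided each count by gene length and a scaled library total (98.9% to 104.7% of the total count). The submitters' processing notes name STAR 2.6.1d, featureCounts 1.5.0-p3, DESeq2 1.20.0, edgeR 3.24.3 and hg38. Libraries were prepared and sequenced by Novogene, per the paper's methods. The strand setting is not given in the sources used here. Without molecular identifiers, counts are not independent molecules, so limits from counts cover counting error only.

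The gene counts were filtered, scaled and tested with edgeR 4.0.16 under R 4.3.3 (filterByExpr, TMM, glmQLFit, glmQLFTest, siDAB2IP against siControl, Benjamini-Hochberg adjustment over all genes tested). Standard errors were derived from the F statistic. Single ratios were compared with two-sided exact permutation tests, and by replicate number with exact sign-flip tests. The scripts were tested on simulated data. Alternatives were DESeq2 1.42.0, other scalings and filters, stricter thresholds, limma 3.58.1 on log2(FPKM + 1) and log2(FPKM + 0.1), a replicate block and leaving out libraries. Residuals of libraries with the same replicate number had correlations of 0.26, 0.15 and 0.25, against −0.28 to 0.02 for unlike numbers. Pairing by number was therefore assumed in the replicate block and the sign-flip tests, an inference from the data that the labels do not state. The reported edgeR fit and the permutation tests did not use the pairing.

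The genes, lists and tests were chosen with earlier results of these data known. The genes named are DAB2IP, the 10 desmosome genes, genes of the other lists past the threshold (at most 6 per list by p), the cadherin cluster and tested genes within 500 kb, and the 3 genes most correlated with the member of smallest p. The other list genes (KRT7, KRT8, KRT15, KRT18, PPL, PLEC, EVPL, CDH1, CDH3, TP63, ADAM17, SNAI1, SNAI2, ZEB1 and ZEB2), and the cell type markers, were named after their values were seen. The regulator counts include 1 gene that fell and is not reported here.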

Additional observations from a re-analysis of the deposited data

How the results depend on the processing

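The number of desmosome genes that fell, 6, was 4 to 6 when libraries were left out and 3 at an adjusted p under 0.01. It was 2 when a log2 change of 1 or more in size was added to the adjusted p under 0.05 (2.42% of all genes tested). It was also 2 with a limma fit of log2(FPKM + 1) that kept every gene with a count, where 0.683% of all genes fell. None of the alternatives gave a desmosome gene that rose. In the same order (left-out range, adjusted p under 0.01, added fold change, limma over all genes) the partners that fell, 7, were 4 to 8, 4, 2 and 0, the adherens junction genes that rose, 2, were 2 to 3, 1, 1 and 0, those that fell, 1, were 0 to 1, 0, 0 and 0, the regulators that rose, 1, were 0 to 2, 0, 0 and 0, and those that fell, 3, were 1 to 4, 1, 0 and 2. Limma on log2(FPKM + 1) and log2(FPKM + 0.1) over genes of at least 1 FPKM gave 4 and 4 desmosome genes that fell. In these fits PKP2 missed the threshold (limma adjusted p = 0.0806 and 0.0861), and PKP1, under 1 FPKM, was not tested. The same fits gave 4 and 4 partners that fell. The regulators that fell were 5 with no filter, 5 with at least 10 counts in every library and 5 with the replicate block. The thresholds are stricter by construction, and the cause of the other shifts was not tested. Shares of all genes called are not given here for the left-out fits, the adjusted p under 0.01 or the other filters. They are also not given for limma over genes of at least 1 FPKM. The counts of these alternatives therefore cannot be read against a background.

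With the replicate block, the calls of the 10 desmosome genes were the same, and those of KRT15, PPL, TP63 and ADAM17 changed as given with the lists. Among the cell type markers DCN (adjusted p = 0.0247), GATA3 (0.0282) and PECAM1 (0.0499) passed as lower with edgeR in that fit and not in the reported one. DSG3 changed sign, without passing the threshold, with no filter (−0.0072), at least 10 counts in every library (−0.0084), limma on log2(FPKM + 1) (−0.0025, and −0.0025 over all genes), limma on log2(FPKM + 0.1) (−0.0026), without replicate 3 of both groups (−0.0037) and when libraries were left out (−0.098 to 0.053). The log2 fold change of DAB2IP lay between −1.99 and −1.79 when libraries were left out, and the differences in balance between −0.44 and −0.26 for DSC3 to DSC2, 0.035 and 0.32 for DSG3 to DSG2, −1.37 and −1.0 for PKP1 to PKP3, and −0.46 and −0.13 for PKP2 to PKP3, none with a changed direction. PKP1 and DSG1 are limited by depth, with at most 54 counts in a library.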
